A study of Homo sapiens with 18 samples.

Results

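FOXA1 and TLE3 binding was examined at 6 secretoglobin genes on chromosome 11, SCGB1D1, SCGB2A1, SCGB1D2, SCGB2A2, SCGB1D4 and SCGB1A1. Chromatin immunoprecipitation followed by sequencing (ChIP-seq) had been run for both factors in 3 established luminal breast cancer lines, the estrogen receptor negative line MDA-MB-453, the ERBB2-amplified line SKBR3 and the estrogen receptor positive line T47D, with 2 replicates per factor and line, and the labels name no treatment. The labels call the replicates biological but do not say whether they came from separate cultures, so p-values measure the spread between these libraries. TLE3 was immunoprecipitated with a Proteintech antibody from cells given an additional crosslinker before formaldehyde, and FOXA1 with a Diagenode antibody, so the 2 factors differ in fixation as well as in antibody. All peaks of the 12 deposited lists whose centre lay in one of the 6 gene bodies or within 50 kb of one were taken, 208 of the 1134194 peaks on chromosomes 1 to 22 and X. The 6 genes are among 19974 protein-coding genes of the gene table used. Peak lists hold no expression, so neither the cell type of the lines nor the activity of these genes could be checked from them.

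Secretoglobins are small secreted proteins that form dimers and are made by glands and mucosal epithelia. SCGB2A2 encodes mammaglobin A, a marker of breast epithelium that pairs with the SCGB1D2 product, lipophilin B. SCGB2A1 encodes mammaglobin B, SCGB1D1 encodes lipophilin A, SCGB1D4 is a further lipophilin-like gene, and SCGB1A1 encodes uteroglobin, the abundant product of airway club cells. FOXA1 is a forkhead pioneer factor that opens chromatin at luminal enhancers, and TLE3 is a Groucho family corepressor that has no DNA-binding domain of its own and is brought to chromatin by partner factors.

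The 5 genes from SCGB1D1 to SCGB1D4 lie in a row between 62190216 and 62299075 on chromosome 11 (hg38), and SCGB1A1 follows at 62419033 to 62423195, 120 kb further on, beyond ASRGL1. Their windows overlap and join into 2 segments, 62140216 to 62349075 and 62369033 to 62473195, which make up 313 kb. The 5 genes for which a promoter sequence was at hand have their starts at 62190216 (SCGB1D1), 62208673 (SCGB2A1), 62242239 (SCGB1D2), 62270158 (SCGB2A2) and, on the reverse strand, 62299075 (SCGB1D4). No promoter sequence was used for SCGB1A1.

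The promoters are shown because FOXA1 peaks covered 3 of the 5 gene starts. Each is the 250 bases before the gene start, 5′ to 3′ on the strand of the gene, from RefSeq on GRCh38.p14, and capitals mark a forkhead heptamer. They span chr11:62189966-62190215 (SCGB1D1, plus strand), chr11:62208423-62208672 (SCGB2A1, plus), chr11:62241989-62242238 (SCGB1D2, plus), chr11:62269908-62270157 (SCGB2A2, plus) and chr11:62299076-62299325 (SCGB1D4, minus).
SCGB2A2: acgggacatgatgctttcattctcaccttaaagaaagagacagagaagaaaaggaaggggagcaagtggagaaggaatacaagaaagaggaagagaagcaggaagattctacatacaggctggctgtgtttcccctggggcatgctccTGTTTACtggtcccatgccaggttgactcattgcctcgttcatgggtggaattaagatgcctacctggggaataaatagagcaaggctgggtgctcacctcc
SCGB2A1: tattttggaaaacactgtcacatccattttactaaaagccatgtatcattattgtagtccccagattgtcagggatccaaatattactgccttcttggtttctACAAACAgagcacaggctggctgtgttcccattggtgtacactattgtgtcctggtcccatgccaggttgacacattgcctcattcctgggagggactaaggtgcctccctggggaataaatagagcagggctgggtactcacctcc
SCGB1D2: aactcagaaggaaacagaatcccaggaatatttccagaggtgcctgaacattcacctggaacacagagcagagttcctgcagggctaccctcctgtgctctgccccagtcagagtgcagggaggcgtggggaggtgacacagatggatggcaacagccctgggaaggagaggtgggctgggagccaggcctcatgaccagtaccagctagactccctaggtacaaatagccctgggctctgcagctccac
SCGB1D1: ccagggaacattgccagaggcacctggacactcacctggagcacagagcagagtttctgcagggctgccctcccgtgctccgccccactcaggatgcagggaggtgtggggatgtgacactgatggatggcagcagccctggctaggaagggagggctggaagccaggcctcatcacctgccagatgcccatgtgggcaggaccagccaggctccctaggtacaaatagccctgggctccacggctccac
SCGB1D4: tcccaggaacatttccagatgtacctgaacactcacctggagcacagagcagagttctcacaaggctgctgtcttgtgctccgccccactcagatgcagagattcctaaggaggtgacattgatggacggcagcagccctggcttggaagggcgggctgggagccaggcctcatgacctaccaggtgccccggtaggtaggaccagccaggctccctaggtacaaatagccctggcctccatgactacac
Forkhead heptamers of 4 spellings were searched on both strands, and the matches do not overlap. The word TGTTTAC occurred once, in SCGB2A2, starting 102 bases before the gene start, and 2.45% of 22132 protein-coding promoters held it in the same window. TGTTTGT occurred once, in SCGB2A1, on the reverse strand 147 bases before the start (3.75% of promoters). The word TGTTTGC, held by 2.75% of promoters, and the word TATTTAC, held by 1.87%, were found in none of the 5. At least 1 of the 4 words was in 2220 of the 22132 promoters. The promoters of SCGB2A1 and SCGB2A2 were identical at 68.8% of aligned bases and shared a run of 21 bases, and those of SCGB1D1, SCGB1D2 and SCGB1D4 were identical at 82.2% to 85.7% in pairs. SCGB1D1 and SCGB1D4 shared a run of 37 bases.

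FOXA1 sat on the starts of SCGB2A1, SCGB1D2 and SCGB2A2 in all 3 lines, and on those of SCGB1D1 and SCGB1D4 in none. A site is a merged region with a peak of both replicates of a line and factor, and the 3 of 5 promoters stand against a FOXA1 site at 32.8% of all promoters (MDA-MB-453), 14.5% (SKBR3) and 27.8% (T47D). A FOXA1 site in all 3 lines was found at 11.8% of promoters. TLE3 sites overlapped 1 of the 5 promoters, that of SCGB1D2, in MDA-MB-453 and T47D and in SKBR3 replicate 1, where 1.8%, 16.6% and 2.78% of all promoters were overlapped. For SKBR3 the TLE3 replicates are kept apart, because the library labelled SKBR3 TLE3 replicate 2 stands apart from the others. Over the genome 6976 merged regions held a peak of both SKBR3 TLE3 replicates, of 21149 peaks in replicate 1 and 94363 in replicate 2. In the windows the peaks of replicate 2 had a median width of 1084 bp, against 256 to 476 bp in the other 11 lists. Peaks of that library covered the promoters of SCGB2A1, SCGB1D2 and SCGB2A2 (43.8% of all promoters).

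**Figure D1:**
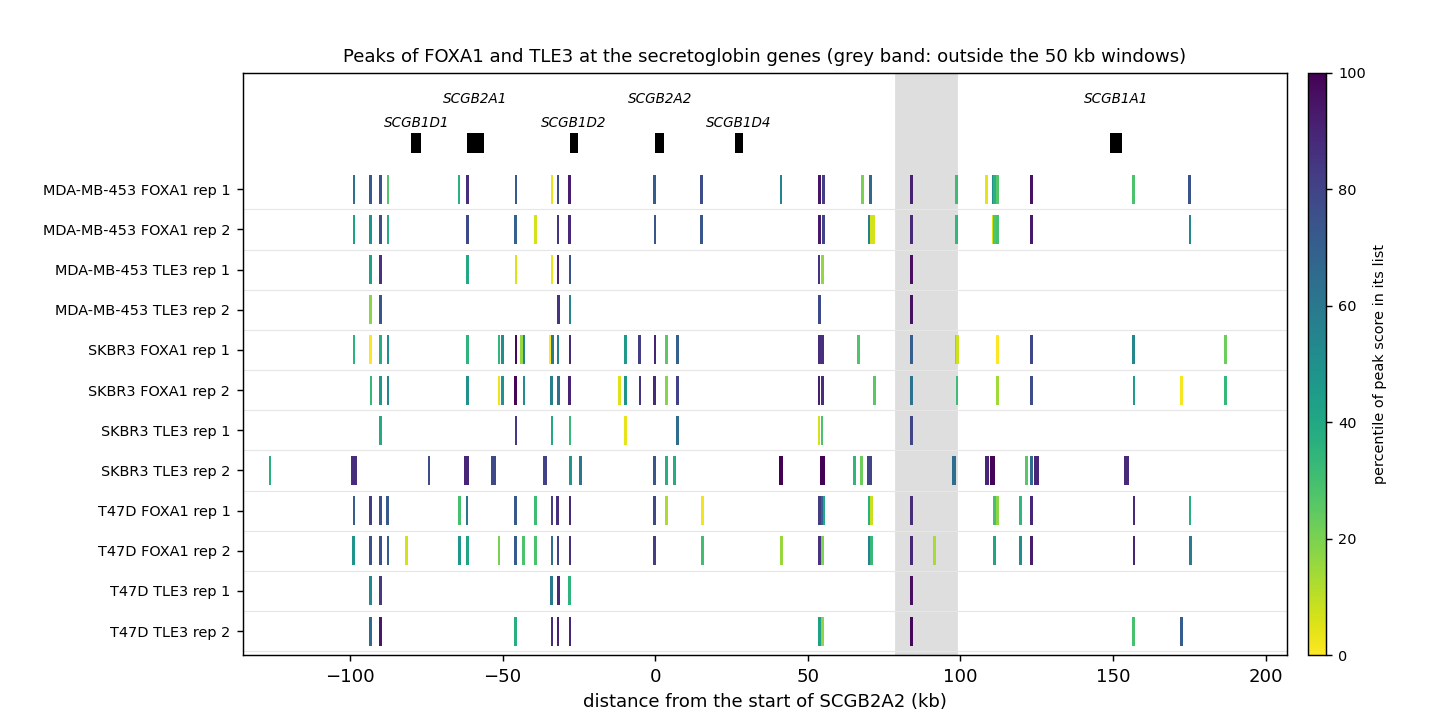
Peaks along the secretoglobin genes in each library. The horizontal axis is the distance from the start of SCGB2A2 in kb, rows are the 12 libraries, black boxes the 6 gene bodies, and colour is the percentile of the peak score in its own list (0 to 100). Narrow peaks are widened to stay visible, and the grey band is the 20 kb between the 2 windows. FOXA1 peaks line up at the starts of SCGB2A1, SCGB1D2 and SCGB2A2 in all 6 libraries.

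The authors' peak score has no stated unit and is compared only within a list, as a percentile, the percent of peaks of that list with a score as low or lower. A percentile depends on the length of the list, so for the 3 gene starts the position in the list, counted from the highest score, is given as well. At the SCGB2A2 start (62269640 to 62270388) FOXA1 peaks lay at percentiles 71.5 and 74.0 in the MDA-MB-453 replicates, 90.0 and 88.7 in SKBR3, and 78.6 and 82.2 in T47D. The 2 SKBR3 libraries were the highest and the 2 MDA-MB-453 libraries the lowest, and the lines did not overlap. By position the order was the same, with 10748 and 13161 in SKBR3, 31488 and 26459 in T47D and 53617 and 39757 in MDA-MB-453. None of the TLE3 libraries had a peak there except SKBR3 replicate 2 (percentile 73.5). Of all FOXA1 sites within 5 percentiles of this one, TLE3 was at 10.2% (MDA-MB-453), 52.2% (SKBR3, replicate 1) and 29.0% (T47D).

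At the SCGB1D2 start (62241791 to 62242542) FOXA1 was at percentiles 92.1 and 88.4 in MDA-MB-453, 89.0 and 90.4 in SKBR3, and 88.7 and 86.2 in T47D. The percentiles of the 3 lines overlapped, but by position the SKBR3 peaks (11798 and 11212) stood above those of MDA-MB-453 (14815 and 17696) and T47D (16690 and 20555). TLE3 was there in all 6 libraries, at 75.0 and 55.1 in MDA-MB-453, 32.7 and 47.1 in SKBR3, and 35.4 and 89.4 in T47D. The TLE3 percentiles of T47D lay farther apart than those of either other line. FOXA1 sites of like percentile held TLE3 in 51.4%, 53.3% and 43.6% of cases in MDA-MB-453, SKBR3 (replicate 1) and T47D.

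At the SCGB2A1 start (62208292 to 62208868) FOXA1 was at 87.1 and 78.1 in MDA-MB-453, 35.4 and 49.6 in SKBR3, and 59.4 and 41.6 in T47D. MDA-MB-453 stood above both other lines, which overlapped each other, and the same held by position (24162 and 33538, against 58833 to 86987). TLE3 had a peak in MDA-MB-453 replicate 1 (39.9) and in SKBR3 replicate 2 (89.3), and in neither T47D library, so no TLE3 site of both replicates was found. The order of the lines at the SCGB2A2 start, SKBR3 above T47D above MDA-MB-453, was thus not the order at SCGB2A1. The order of the lines at single sites was not tested.

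The strongest FOXA1 peaks of SKBR3 in the windows lay between SCGB2A1 and SCGB1D2 (62224063 to 62225019, 15.9 kb after the SCGB2A1 start). They stood at percentiles 97.7 and 98.7, against 72.3 and 69.5 in MDA-MB-453 and 72.7 and 71.8 in T47D. TLE3 was found there in SKBR3 replicate 1 at 83.5, its highest percentile in the windows, in MDA-MB-453 replicate 1 at 5.52 and in T47D replicate 2 at 37.0. It was missing from the other 3 TLE3 libraries.

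Upstream of SCGB1D2, at 62237919 to 62238722 (3.9 kb before its start), TLE3 peaks were at 91.3 and 85.4 in MDA-MB-453 and 88.6 and 90.9 in T47D, with none in either SKBR3 library. FOXA1 was there in all 6 libraries, at 77.9 and 84.7 in MDA-MB-453, 57.3 and 63.8 in SKBR3 and 86.4 and 79.4 in T47D. SKBR3 was the lowest line for FOXA1 as well, by percentile and by position in the list. A second site 6.1 kb before SCGB1D2 (62235519 to 62236853) held TLE3 in both T47D libraries (60.1 and 87.7), in SKBR3 replicate 1 (40.0) and in MDA-MB-453 replicate 1 (3.00). FOXA1 there had peaks at 81.8 and 64.4 in T47D, 59.0 and 57.3 in SKBR3 and 3.45 in MDA-MB-453 replicate 1 alone.

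Upstream of SCGB1D1, 10.1 kb before its start (62179785 to 62180534), TLE3 was found in 5 libraries, at 85.8 and 73.9 in MDA-MB-453, 83.6 and 94.1 in T47D and 38.9 in SKBR3 replicate 1. FOXA1 was at 75.4 and 77.1 in MDA-MB-453, 76.5 and 76.1 in T47D and 37.6 and 46.5 in SKBR3, so both factors ranked lowest in SKBR3, FOXA1 also by position in the list. A weaker site 13.3 kb before SCGB1D1 (62176689 to 62177223) held TLE3 at 43.3 and 17.4 in MDA-MB-453 and 53.0 and 65.3 in T47D and in neither SKBR3 library. Its FOXA1 peaks were at 72.1 and 48.1 in MDA-MB-453, 82.1 and 75.4 in T47D and only 0.738 and 33.6 in SKBR3. On the far side of SCGB1D4, 24.9 kb before its start (62323467 to 62324386), TLE3 was at 85.3 and 78.1 in MDA-MB-453, 6.72 in SKBR3 replicate 1 and 43.6 in T47D replicate 2. FOXA1 stood between 82.3 and 94.7 in all 6 libraries there. A neighbouring site (62324536 to 62325709) held TLE3 in SKBR3 replicate 1 at 28.2, in MDA-MB-453 replicate 1 at 16.5 and in T47D replicate 2 at 17.2.

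The highest ranked peaks of SKBR3 TLE3 replicate 2 in the windows lay only in part at TLE3 peaks of other libraries. They were at 62310613 to 62312002 (percentile 99.6), 62324128 to 62325831 (99.4), 62379962 to 62381544 (99.2), 62394413 to 62395836 (89.5) and 62207437 to 62209284 (89.3), the last over the SCGB2A1 start. The second covers the FOXA1 site at 62324536 to 62325709 before SCGB1D4 described above. It reaches only the end of the neighbouring one (62323467 to 62324386). The first overlapped FOXA1 peaks of MDA-MB-453 replicate 1 and T47D replicate 2. The third overlapped FOXA1 peaks of both MDA-MB-453 and both T47D libraries. Neither met a FOXA1 peak of SKBR3, and the fourth met no FOXA1 peak of any line. A further peak lay just after the end of SCGB1D2 (62245338 to 62246020; 61.2).

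**Figure D2:**
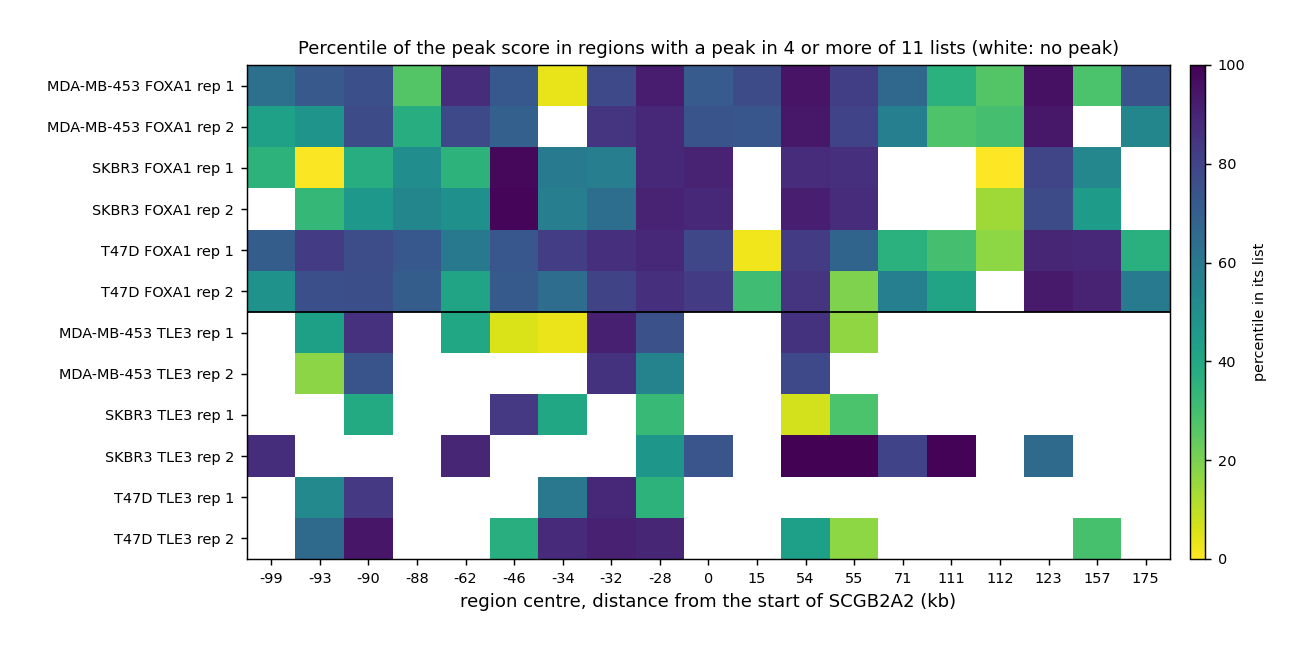
Percentile of the peak score in its own list (colour, 0 to 100) for each library (rows) and each region in the windows with a peak in 4 or more of 11 lists (columns, by distance in kb from the start of SCGB2A2). White is no peak, the black line separates FOXA1 from TLE3, and regions were built without SKBR3 TLE3 replicate 2, whose peaks were added where they overlap. The column at 0 kb, the SCGB2A2 start, holds FOXA1 in 6 of 6 libraries and TLE3 only in SKBR3 replicate 2.

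Merging the peaks of the 11 lists other than SKBR3 TLE3 replicate 2 gave 40 regions in the windows. FOXA1 was present in all 6 libraries in 11 of them. Of these, 2 also held TLE3 in all 5 libraries (10.1 kb before SCGB1D1 and at the SCGB1D2 start), 6 held it in 1 to 4 libraries and 3 in none of the 5. These 3 were the SCGB2A2 start, a site 7.6 kb before SCGB1D1 and a site inside ASRGL1 (62393133 to 62393759), 25.6 kb from SCGB1A1. FOXA1 at that last site ranked at 95.7 and 93.5 in MDA-MB-453, 79.0 and 77.1 in SKBR3 and 89.1 and 92.9 in T47D. FOXA1 sites of like percentile held TLE3 in 70.7%, 27.7% and 55.5% of cases in the same order, with replicate 1 for SKBR3. No region held TLE3 without a FOXA1 peak in any library. At 62442331 to 62442733, however, TLE3 of T47D replicate 2 (70.9) met no T47D FOXA1 peak. The only FOXA1 peak there was that of SKBR3 replicate 2, at percentile 1.51. Merged regions were not counted in this way over the genome, so nothing particular to these genes is read from their numbers.

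SCGB1A1 had FOXA1 but little TLE3 near it. Within 50 kb of its body there were 5 to 7 FOXA1 peaks per library and 0 TLE3 peaks in both MDA-MB-453 libraries, in SKBR3 replicate 1 and in T47D replicate 1. T47D replicate 2 had 2, at percentiles 29.2 and 70.9 (the latter with no T47D FOXA1 peak), and SKBR3 replicate 2 had 6. The closest site was a peak of SKBR3 TLE3 replicate 2, 1.3 kb from the nearer end of the gene (62423821 to 62425263; percentile 88.1). The closest FOXA1 site lay 3.8 kb from its nearer end, in the noncoding gene LOC102723765 (62426757 to 62427249), which ranked at 88.5 and 90.0 in T47D, 53.8 and 45.1 in SKBR3 and 28.2 in MDA-MB-453 replicate 1, with no peak in replicate 2. A TLE3 site within 50 kb was found for 5 of 6 members (MDA-MB-453), 4 of 6 (T47D) and 5 of 6 (SKBR3 replicate 1), against 55.3%, 74.7% and 57.3% of all protein-coding genes, and for 6 of 6 in SKBR3 replicate 2 (96.5%). FOXA1 sites were near 6 of 6 members in each line, as they were near 95.1%, 89.8% and 95% of genes in MDA-MB-453, SKBR3 and T47D. Neighbouring members share sites, so these counts are not independent.

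The number of FOXA1 peaks within 50 kb was highest in SKBR3 for SCGB1D2 and SCGB2A2. SCGB1D2 had 15 and 14 FOXA1 peaks in SKBR3, a number that 11.1% and 14.7% of protein-coding genes reached or passed, 8 and 7 in MDA-MB-453 (64.1% and 57.0%) and 10 and 11 in T47D (38.1% and 30.6%). SCGB2A2 had 13 and 12 in SKBR3 (15.2% and 20.0%). It had 7 and 6 in MDA-MB-453 (70.7% and 64.7%) and 8 and 9 in T47D (51.7% and 42.2%). SCGB1D4, in the same order, had 8 and 9 (35.4% and 32.8%), 7 and 7 (70.7% and 57.0%), and 8 and 7 (51.7% and 57.4%). SCGB1D2 and SCGB2A2, whose windows overlap, thus had more FOXA1 peaks in both SKBR3 libraries than in any library of the other lines. For SCGB1D4 the lines overlapped, and so they did for the remaining members. SCGB1D1 had 14 and 11 in SKBR3 and 11 and 14 in T47D, and SCGB2A1 had 15 and 13 against 11 and 14. SCGB1A1 had 5 and 6 in SKBR3 and 7 and 5 in MDA-MB-453.

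In SKBR3, 5 of 23 FOXA1 sites had no FOXA1 peak in any library of the other lines, against 17.8% of all SKBR3 sites. MDA-MB-453 had 1 of 18 (24.8%) and T47D 1 of 22 (15.3%). The SKBR3 sites included 3 around SCGB2A2. One lay 5.0 kb before its start (62264795 to 62265537; percentiles 82.4 and 84.7) and had no TLE3 peak, one lay 7.3 kb after it (62277103 to 62277879; 69.6 and 80.9) with TLE3 of replicate 1 at 64.8, and one lay 9.7 kb before it (62260251 to 62260689; 46.0 and 48.3) with TLE3 of replicate 1 at 3.87. Another SKBR3 FOXA1 site, just after the end of SCGB2A2 (62273709 to 62274150; 25.8 and 18.2), was also in T47D replicate 1 at 12.6. It met a TLE3 peak of SKBR3 replicate 2 (36.5) and of no other TLE3 library. The 5 of 23 is close to the share over all SKBR3 sites.

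Counted over the windows, the MDA-MB-453 replicates had 24 and 21 FOXA1 peaks, those of SKBR3 27 and 26 and those of T47D 25 and 26. TLE3 had 9 and 5 peaks in the MDA-MB-453 libraries, 8 and 22 in the SKBR3 pair and 5 and 10 in the T47D pair, and 22 in SKBR3 replicate 2 was the one TLE3 value within the range of FOXA1. The lists differ in length, with 107598 to 188029 FOXA1 peaks and 21149 to 94363 TLE3 peaks per list, so the main comparison is per 10000 peaks of the list. On that scale FOXA1 had 1.32 ± 0.0678 (MDA-MB-453), 2.37 ± 0.200 (SKBR3) and 1.72 ± 0.0335 (T47D), and TLE3 had 2.15 ± 0.0666, 3.06 ± 1.03 and 1.64 ± 0.0201 (SD, n = 2 each). Averaged over lines FOXA1 was at 1.80 and TLE3 at 2.29, a FOXA1 minus TLE3 difference of −0.481 that did not pass an exact permutation, two-sided, in which the factor labels were exchanged inside each line (p = 0.130, Benjamini-Hochberg adjusted 0.162 over 5 tests; the smallest possible p was 0.00926). Either SKBR3 TLE3 library moves it, to −0.722 without replicate 2 (exact permutation p = 0.0556) and to −0.239 without replicate 1 (exact permutation p = 0.222). In equally long lists, the highest scored 21149 peaks of each, it was −1.02 and passed (exact permutation p = 0.00926). In plain numbers of peaks FOXA1 exceeded TLE3 by 15 (exact permutation p = 0.00926), so the direction turns with the scale.

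**Figure D3:**
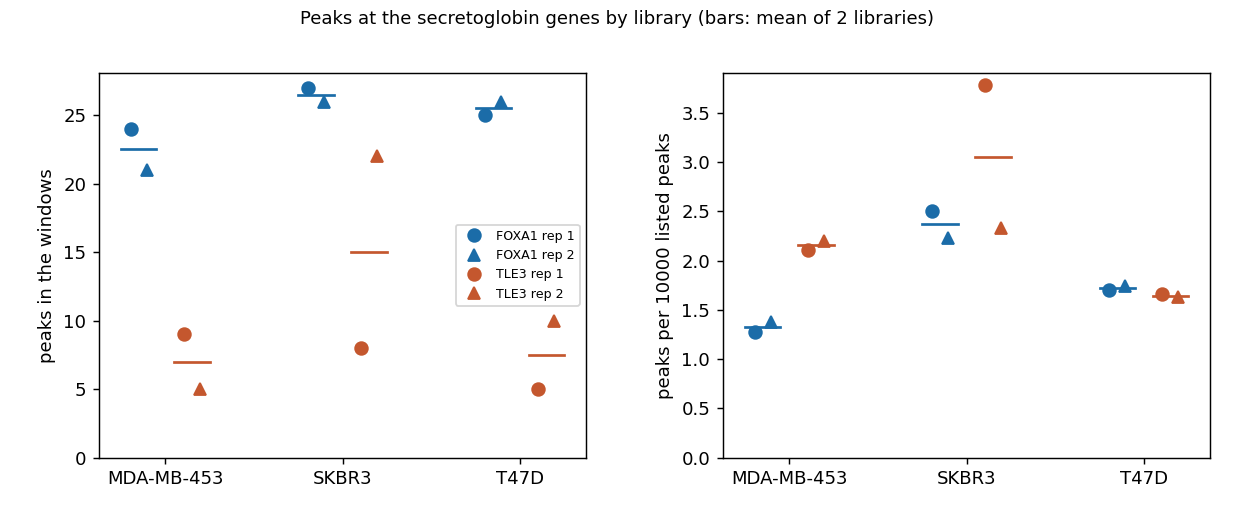
Peaks in the windows per library, as numbers (left) and per 10000 peaks of the same list (right), by line. Blue is FOXA1, orange TLE3, circles replicate 1, triangles replicate 2, and bars are means of 2 libraries. FOXA1 has more peaks in every line by number, while per listed peak TLE3 is the higher factor in MDA-MB-453 and the factors are close in T47D.

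The lines differed in peaks per 10000 listed, with SKBR3 the highest. Averaged over the 2 factors the value was 2.71 in SKBR3, 1.74 in MDA-MB-453 and 1.68 in T47D (exact permutation of line labels within factors, p = 0.00444, adjusted 0.0222 over 5 tests). An exact permutation between a pair of lines cannot go below p = 0.0556. SKBR3 against MDA-MB-453 and against T47D both gave that value (exact permutation, adjusted 0.0926), with differences of 0.973 and 1.03, and MDA-MB-453 minus T47D was 0.0576 (exact permutation p = 0.611). SKBR3 also has the shortest FOXA1 lists (107598 and 116768 peaks, against 147283 to 188029), and in numbers of peaks the 3-line test did not pass (exact permutation p = 0.484). In equally long lists it passed, with SKBR3 minus MDA-MB-453 at 1.89 (exact permutation p = 0.0400), as it did with 100 kb windows at 1.48 (exact permutation p = 0.00889). Neither was run without SKBR3 TLE3 replicate 2, which had 11 sites in the equally long lists, against 8 in replicate 1. The call ended in the upper 50% of each list (exact permutation p = 0.640), with 10 kb windows (0.173) and without any 1 of the 4 TLE3 libraries of MDA-MB-453 and T47D (0.107 to 0.160).

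A minority of the FOXA1 sites held TLE3. The share was 5 of 18 in MDA-MB-453 (27.8%, exact 95% binomial interval 9.69 to 53.5), 8 of 23 in SKBR3 with TLE3 replicate 1 (34.8%, 16.4 to 57.3), 7 of 23 with replicate 2 (30.4%, 13.2 to 52.9) and 5 of 22 in T47D (22.7%, 7.82 to 45.4). Over all FOXA1 sites of the line the shares were 15.8%, 20.9%, 22.4% and 21.9%, each within the interval of the windows. In the other direction, FOXA1 overlapped 5 of 5 TLE3 sites of MDA-MB-453, 8 of 8 of SKBR3 replicate 1 and 5 of 5 of T47D, as did 99.3%, 93.5% and 87% of all TLE3 sites. In SKBR3 replicate 2 it was 6 of 22 (27.3%, against 21.7% of all). By rank, the median percentile of the peaks in the windows averaged 57.9 ± 8.51 for FOXA1 (SD, n = 6 libraries) and 59.8 ± 16.9 for TLE3 (SD, n = 6), or 56.2 ± 16.2 for TLE3 without SKBR3 replicate 2 (SD, n = 5).

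**Figure D4:**
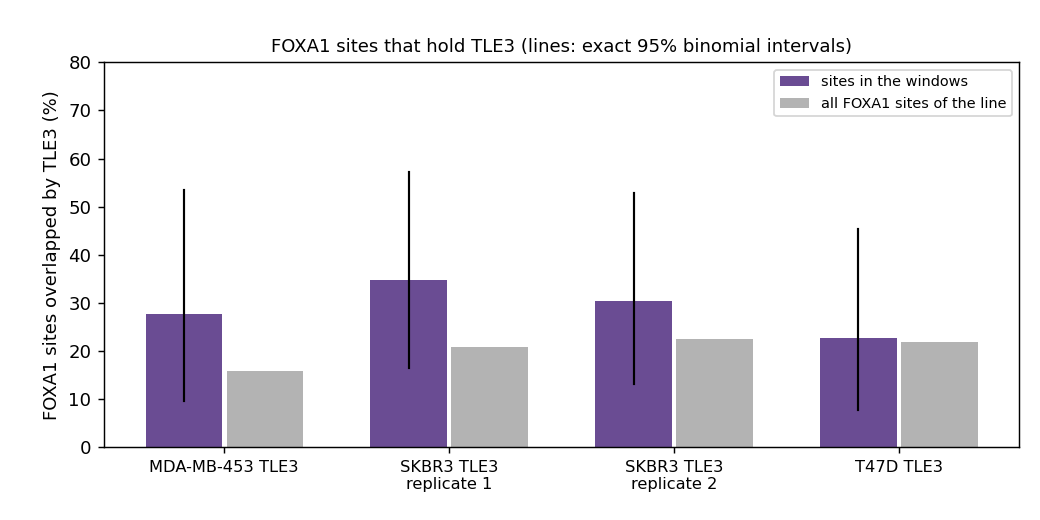
Percent of FOXA1 sites overlapped by TLE3, in the windows of the secretoglobin genes (purple, with exact 95% binomial intervals over 18 to 23 sites) and over all FOXA1 sites of the line (grey). SKBR3 is shown for each TLE3 replicate, and every interval includes the grey value beside it.

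A TLE3 site of T47D overlapped 4 of 5 TLE3 sites of MDA-MB-453, against 53.4% over the genome, and 4 of 5 T47D sites were overlapped in turn (40.8%). With 5 sites a line, nothing particular to these genes is read from the counts. There were 4 regions with TLE3 in both libraries of both lines, a count that was not made over the genome. They lay at 13.3 and 10.1 kb before SCGB1D1, 3.9 kb before SCGB1D2 and at the SCGB1D2 start. SKBR3 replicate 1 had TLE3 in 2 of the 4. Its 8 sites included 2 that no other of the 5 libraries had (25.9% over the genome), both near SCGB2A2. FOXA1 peaks at a TLE3 site ranked higher than the others of the windows in each FOXA1 library. Their medians were 77.9 and 84.7 against 54.95 and 48.6 in MDA-MB-453, 77.8 and 84.2 against 35.3 and 39.3 in SKBR3 (replicate 1), and 82.1 and 76.1 against 38.3 and 46.8 in T47D. Over all FOXA1 peaks the medians were 86.2 to 92.5 at a TLE3 site and 42.4 to 44.5 elsewhere, so the same holds genome-wide. The values in the windows are descriptions over 21 to 27 peaks per library.

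The limit of 50 kb left out a strong site. At 62353754 to 62354418, inside ASRGL1, an asparaginase-like gene, 55 kb from SCGB1D4, TLE3 lay at percentiles 96.3 and 95.8 in MDA-MB-453, 96.7 and 98.7 in T47D and 80.1 in SKBR3 replicate 1. The same site held FOXA1 at 91.4 and 88.7, 87.6 and 89.2, and 70.7 and 62.6 in MDA-MB-453, T47D and SKBR3. TLE3 ranked higher there than at any site inside the windows in each of these 5 libraries except SKBR3 replicate 1, whose peak between SCGB2A1 and SCGB1D2 was higher. Over the 10 kb on either side of the limit, the 15 peaks just inside had percentiles of 4.11 to 89.1 (median 33.0) and the 19 just outside 6.34 to 98.7 (median 70.7). Of those 19, 11 are the ASRGL1 site counted once per library, and the other 8 had a median of 32.2, close to that of the peaks inside.

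Secretoglobin genes elsewhere in the genome, SCGB3A1, SCGB3A2, SCGB1C1, SCGB1C2 and SCGB2B2, had a FOXA1 site within 50 kb for 4 of 5 members of the list (MDA-MB-453), 3 of 5 (SKBR3) and 5 of 5 (T47D), and a TLE3 site for 3, 2 (replicate 1) and 3 of 5. The best FOXA1 site near SCGB3A2, an airway secretoglobin, ranked between 99.5 and 99.99 over the 3 lines. No promoter of these 5 had a FOXA1 site in SKBR3, and 1 had one in MDA-MB-453 and in T47D, that of SCGB2B2. Among 12 genes of breast secretions, FOXA1 sites were near 12, 11 and 12 and TLE3 sites near 6, 7 (replicate 1) and 8 in MDA-MB-453, SKBR3 and T47D. By the highest value in any line, their leading FOXA1 sites were near MUCL1 (99.4 to 99.7 over the lines), AZGP1 (98.8 to 99.7) and PIP (97.9 to 99.7), though in SKBR3 BTN1A1 (98.9) ranked above AZGP1 and PIP, and LYZ (98.2) above PIP. Of 42 neighbouring protein-coding genes within 500 kb, FOXA1 sites were near 41, 37 and 41 and TLE3 sites near 19, 19 (replicate 1) and 42. These genes also have 42 promoter entries, with several for some genes and none for others. A FOXA1 site covered 19, 3 and 18 of the entries, which are not counts of genes. Over all protein-coding genes, FOXA1 sites were near 95.1%, 89.8% and 95% in MDA-MB-453, SKBR3 and T47D. TLE3 sites were near 55.3%, 57.3% (replicate 1) and 74.7%, and FOXA1 covered 32.8%, 14.5% and 27.8% of promoters. Nothing particular to the lists is read from the counts. By the highest value in any line the neighbours were led by NXF1, SLC3A2, STX5, TEX54, TMEM223 and WDR74, which share their value of 98.3 in T47D. In MDA-MB-453 EML3 and GANAB (95.6), among others, ranked above them, and in SKBR3 AHNAK led (94.7).

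In peaks within 50 kb per 10000 listed, the genes most like SCGB2A2 over the 12 libraries were ANXA13, TRIM14, KRTAP2-3, KRTAP2-2 and GPT2, with Pearson's r of 0.971 to 0.983. All 5 and SCGB2A2 were highest in SKBR3 TLE3 replicate 1, the shortest list, where SCGB2A2 had 2.36 and ANXA13 3.78. KRTAP2-3 and KRTAP2-2 are neighbours on chromosome 17 whose windows overlap, so they share peaks and are not separate cases. The likeness is a description over libraries that share lines and list lengths.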

How the data were processed

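The deposited files are 12 peak lists with positions on hg38 and a score per peak, which the authors made, and whose unit is not stated; no read counts are in them, so depth is unknown. The tools named, per the submitters' processing notes, are MACS2, BWA 0.7.5a, Trim Galore and SAMtools, and the settings of the caller were not given in the sources used here. The 6 inputs were not used here. The lowest score in each list was about 2, so weaker enrichment is not seen. The 15 peaks outside chromosomes 1 to 22 and X were left out.

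Peaks were assigned by their centre, and regions by an overlap of at least 1 bp, with Python 3.11.15 (pandas 2.3.3, scipy 1.17.1). Gene positions came from RefSeq (GRCh38.p14). Group comparisons used exact permutation of library labels, tested first on simulated data, at a threshold of 0.05. The simulation gave all groups the same spread. In the data the SD per 10000 peaks ran from 0.0201 (T47D TLE3) to 1.03 (SKBR3 TLE3), so unequal spread was not covered. Differences were tested two-sided. The test over all lines used the sum of squares between lines, which has no direction and does not test which line is highest. Exact binomial intervals treat sites as independent and cover counting error only. Same-numbered FOXA1 and TLE3 libraries did not deviate together, so numbers were not taken as pairs.

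All 6 members are named. Sites named were all TLE3 sites where a line had 10 or fewer (otherwise the 5 highest ranked), the 3 highest ranked FOXA1 sites per line, and sites within 1 kb of a member's ends; other sites were chosen after their values were seen. Members and lists were chosen with earlier results of these data known. Alternatives were score cuts, list lengths, windows, overlap rules, scales and left-out libraries. Leaving out a library was not combined with score cuts, list lengths or other windows.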

Additional observations from a re-analysis of the deposited data

Results flagged for a closer look

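The difference between FOXA1 and TLE3 in peaks per 10000 listed peaks was not alike in the lines. MDA-MB-453 had a FOXA1 minus TLE3 value of −0.831 and T47D one of 0.0780, with every MDA-MB-453 TLE3 library above and every T47D TLE3 library below the FOXA1 libraries of its line. The difference between these differences was −0.909 (exact permutation p = 0.0556, the smallest that 36 arrangements can give), so it does not pass the threshold of 0.05 and could not have. In SKBR3 it was −0.689.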

How the results depend on the processing

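The FOXA1 minus TLE3 difference per 10000 listed peaks turned to 15 in numbers of peaks (exact permutation p = 0.00926) and to 1.62 in percent of the windows covered (p = 0.185, exact permutation). It passed the threshold at −1.02 in equally long lists (exact permutation p = 0.00926) and at −0.735 with 100 kb windows (exact permutation p = 0.0463), and ranged from −0.722 to −0.239 with 1 library left out (exact permutation p = 0.0556 to 0.333). With the replicate number as a block it was −0.481 (exact permutation p = 0.188); the numbers did not pair the libraries (r over genes of 0.05003 for MDA-MB-453, 0.0381 for SKBR3 and −0.0136 for T47D).

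The 3-line test lost its call in the upper 50% of each list, with 10 kb windows, in numbers of peaks and in percent covered, where the SKBR3 minus MDA-MB-453 difference was 0.265, 0.722, 6 and 1.85. It passed in equally long lists (1.89) and with 100 kb windows (1.48), and the difference ranged from 0.610 to 1.34 with 1 library left out. Sites moved in the upper 50% to 12 for SKBR3 FOXA1, 2 for SKBR3 TLE3 replicate 1 and 11 for T47D FOXA1. In equally long lists they fell to 3 for MDA-MB-453 FOXA1, 6 for SKBR3 FOXA1, 11 for SKBR3 TLE3 replicate 2 and 3 for T47D FOXA1. With 10 kb windows FOXA1 had 6, 14 and 9 sites in MDA-MB-453, SKBR3 and T47D, and TLE3 had 2, 5 (replicate 1), 10 (replicate 2) and 3. T47D TLE3 had 9 with 100 kb windows and 10 with either replicate, and MDA-MB-453 TLE3 had 9 with either replicate. With 1 library left out the sites ranged over 21 to 24, 26 to 27 and 25 to 26 for FOXA1 and 5 to 9 and 5 to 10 for TLE3 of MDA-MB-453 and T47D. The share of FOXA1 sites with TLE3 moved to 66.7% in equally long lists, of only 3 sites in MDA-MB-453 and of 6 in SKBR3 with replicate 1. It was 16.7% in SKBR3 with replicate 1 and 36.4% in T47D in the upper 50%, and 50% in MDA-MB-453 and 44.4% in T47D with 10 kb windows. With 1 library left out it was 20.8% to 44.4% in MDA-MB-453, 29.6% to 30.8% and 26.9% to 29.6% in SKBR3 with replicates 1 and 2, and 19.2% to 40.9% in T47D. The mean FOXA1 percentile moved to 39.7 in equally long lists and 66.6 with 10 kb windows, and was 55.7 to 59.6 with 1 library left out (TLE3 56.2 to 64.6). Fewer peaks enter under stricter cuts and smaller windows; other causes were not tested. Including the 20 kb between the windows, an alternative chosen after seeing the data, ended no call. Depth is unknown, so a missing peak does not show that a factor is absent.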
